A study of Mus musculus with 16 samples.

Results

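The transcripts described here belong to the circadian clock and its output in CD11b+ brain cells: *Hlf*, *Dbp* and *Tef*, which encode the PAR bZIP activators, *Nfil3*, their repressor, and *Per1*, *Per2*, *Per3*, *Nr1d1*, *Nr1d2* and *Arntl*. They are 10 of the 55385 genes listed in the count table, taken by symbol. The set was chosen by a measured value of these libraries, the lower *Hlf* level in mice with the 5xFAD transgenes, and the other 9 genes were added as its partners in the clock. The *Hlf* differences between transgenic and nontransgenic mice are therefore given as a description, with no test.

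The circadian clock is a transcriptional loop. BMAL1, the product of *Arntl*, pairs with CLOCK and activates genes through E-box elements, among them *Per1*, *Per2*, *Per3*, *Nr1d1*, *Nr1d2*, *Dbp* and *Tef*. The PER proteins repress this activation, and the nuclear receptors REV-ERBα (*Nr1d1*) and REV-ERBβ (*Nr1d2*) repress *Arntl*. HLF, DBP and TEF activate genes through D-box elements, which NFIL3 also binds as a repressor. Clock genes cycle over the day in many tissues, microglia included, so that their level in a single sample depends on the hour of collection.

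RNA was sequenced from CD11b+ brain cells of mice at 20 weeks of age, isolated on magnetic columns, in 16 libraries. The study's methods list female 5xFAD mice as obtained for the crosses, which need not give the sex of the mice sequenced. The 4 genotypes, named as labelled, were WT (without the 5xFAD transgenes), *Card9*-/- (germline loss of the signaling adaptor CARD9), 5xFAD (carrying mutant human transgenes that are expressed in neurons and lead to amyloid plaques in the brain) and *Card9*-/-5xFAD (both), with 4 libraries each. The labels give replicate numbers but name no mouse, so that the p-values below measure the spread between these libraries. According to the study's methods the mice were kept under a daily light cycle and the brains were dissociated with warm enzyme before the sort. The hour of collection was not given in the sources used here.

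Each library held 2970148 to 19333325 counts on genes. Microglia markers summed to 19254 to 38159 CPM (counts scaled to the size of the library) and all 12 of them were detected. *Card9* itself measured 13.6 to 51.3 CPM in WT and 16.7 to 34.8 CPM in the libraries labelled *Card9*-/-, ranges that overlap, so that this gene-level count did not check the *Card9* genotype; the deleted exons were not given in the sources used here. The 3 libraries of lowest depth, *Card9*-/-5xFAD replicate 4, *Card9*-/- replicate 4 and WT replicate 1, also had the lowest summed microglia markers (22189, 20565 and 19254 CPM). They had the highest summed endothelial or mural cell markers (128, 296 and 189 CPM, against 44.7 to 94.4 CPM in the other 13 libraries) and neuron markers (8.01, 21.6 and 10.4 CPM). Results that rest on them are given with and without them.

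The promoters of *Hlf*, *Tef* and *Per3* are shown because these 3 transcripts were lower with the transgenes and differed in the element patterns that they matched. Each line holds the 250 bases before a RefSeq transcription start on the strand of the gene (assembly GRCm38.p6), in lower case with the matched elements in capitals. The lines cover chr11:90390918-90391167 (minus strand) for *Hlf*, chr15:81802423-81802672 (plus strand) for *Tef* and chr4:151044666-151044915 (minus strand) for *Per3*. The capitals mark a cyclic AMP response element in *Hlf*, and a pair of matches to the D-box pattern TTANNTAA (N for any base) in *Per3*. In *Tef* they mark a different match to that pattern, followed by an E-box.
Hlf: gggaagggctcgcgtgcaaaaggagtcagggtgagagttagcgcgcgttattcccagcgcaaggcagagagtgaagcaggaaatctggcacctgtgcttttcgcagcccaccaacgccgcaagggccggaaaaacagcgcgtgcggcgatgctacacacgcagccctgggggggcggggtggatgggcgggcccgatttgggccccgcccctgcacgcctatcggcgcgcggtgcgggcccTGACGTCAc
Tef: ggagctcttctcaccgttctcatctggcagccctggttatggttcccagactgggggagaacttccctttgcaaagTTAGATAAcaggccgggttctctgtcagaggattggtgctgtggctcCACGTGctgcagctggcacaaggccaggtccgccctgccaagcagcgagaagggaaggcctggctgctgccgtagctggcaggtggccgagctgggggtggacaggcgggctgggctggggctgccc
Per3: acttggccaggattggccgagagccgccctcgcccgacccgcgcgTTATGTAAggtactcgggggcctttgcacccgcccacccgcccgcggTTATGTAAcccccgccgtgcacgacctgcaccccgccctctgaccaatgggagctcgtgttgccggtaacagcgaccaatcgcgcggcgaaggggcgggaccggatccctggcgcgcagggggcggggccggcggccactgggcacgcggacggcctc

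The elements searched on both strands were the E-box CACGTG, the D-box TTANNTAA, the nuclear receptor element AGGTCA and the cyclic AMP response element TGACGTCA, none of which overlapped another in these windows. Across 32851 windows of the same length, 6.02% held the E-box, 5.43% the D-box, 14.0% the receptor element and 1.55% the cyclic AMP response element. In *Per3* the same D-box, TTATGTAA, began 205 and 158 bases before the start. In *Tef* the D-box TTAGATAA began 174 and the E-box 127 bases before the start, and a second *Tef* start had an E-box 138 bases before it. *Hlf* held the cyclic AMP response element 9 bases before its start and neither of the clock boxes. Among the other members, *Per1* held an E-box and a receptor element 166 and 137 bases before one start, and *Nfil3* and *Nr1d2* held a receptor element 12 and 77 bases before theirs. *Dbp*, *Nr1d1* and *Arntl* held none of these letters in the windows. *Per2* was not among the windows used. A match is a description of these letters and no evidence of binding.

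All 10 members passed the filter on low counts. Per kilobase of annotated exon, the median levels over the 16 libraries ran from *Nfil3* (6.46 RPKM), *Nr1d2* (6.11), *Tef* (5.48) and *Dbp* (5.40) through *Per3* (2.44), *Per1* (2.37), *Arntl* (1.89), *Nr1d1* (1.28) and *Hlf* (1.01) to *Per2* (0.470 RPKM). The ranges over libraries of all neighbours in this order overlapped. *Per2* and *Nr1d1* rested on as few as 4 counts in a library, and *Hlf* on as few as 11, so that their values carry the largest counting error. The members also differed in spread among libraries of the same genotype, from an SD of 0.40 in *Hlf* to 1.14 in *Dbp* and 1.11 in *Per1* on the log2 CPM scale.

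**Figure D1:**
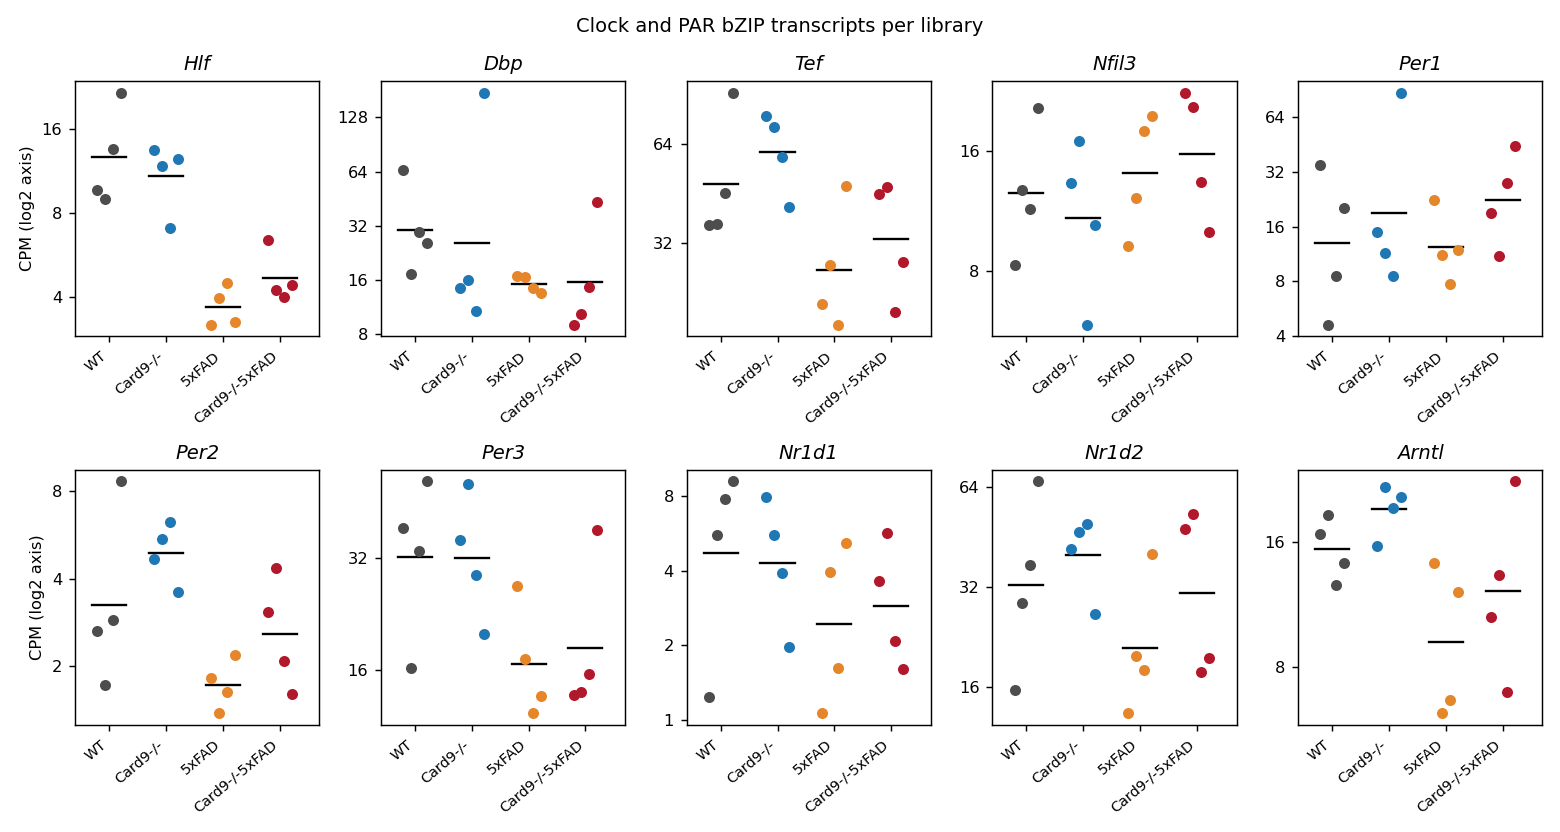
Level of each of the 10 transcripts in CPM (log2 axis) in every library, by genotype; each point is 1 library, in replicate order from left to right, and the bar is the geometric mean of 4 libraries. *Hlf* sits at 3.18 to 6.41 CPM in the 8 transgenic libraries and at 7.05 to 21.5 CPM in the other 8, while for the other members the transgenic and nontransgenic ranges overlap.

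*Hlf* (GRCm38, chr11:90336536-90390895, minus strand) encodes hepatic leukemia factor. It measured 9.68, 8.99, 13.6 and 21.5 CPM in the WT libraries and 13.4, 11.7, 7.05 and 12.4 CPM in *Card9*-/-. With the transgenes it measured 3.18, 3.98, 4.50 and 3.27 CPM in 5xFAD and 6.41, 4.22, 4.00 and 4.41 CPM in *Card9*-/-5xFAD. Every transgenic library was below every nontransgenic one, including the 3 of lowest depth. The log2 fold change was −1.85 (SE 0.34) in 5xFAD against WT, −1.22 (SE 0.33) in *Card9*-/-5xFAD against *Card9*-/- and −1.53 (SE 0.24) averaged over both *Card9* genotypes. Without the 3 libraries of lowest depth the averaged value was −1.52. For comparison, 8.04% and 7.01% of the 14513 genes tested did not overlap between the groups in the first and the second contrast, and 1.66% did not overlap between the 8 transgenic and the 8 nontransgenic libraries.

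Markers of border-associated macrophages, which carry CD11b and are sorted with microglia, also were lower in the transgenic mice. The 6 markers summed to 880 to 1432 CPM in WT and 853 to 1695 CPM in *Card9*-/-, against 515 to 646 CPM in 5xFAD and 370 to 1579 CPM in *Card9*-/-5xFAD. Of the 6, 4 fell past an FDR of 0.1 in the averaged contrast, and the median log2 fold change was −1.14. Over all genes tested, 5.73% fell past that threshold, 61.7% had a negative value and the median was −0.15. In bulk RNA, fewer cells of a type and less RNA per cell cannot be told apart, and the part of these cells in the *Hlf* difference was not tested. Other marker lists were lower as well. Of 10 endothelial or mural cell markers 9 had negative values in the averaged contrast and 2 fell (median −1.09), and they summed to 66.96 to 189 CPM in WT, 44.7 to 296 CPM in *Card9*-/-, 57.9 to 91.0 CPM in 5xFAD and 44.8 to 128 CPM in *Card9*-/-5xFAD. Of 6 monocyte markers 5 were tested, all with negative values, and 2 fell (median −0.76). All 3 neuron markers tested had negative values (median −0.98), as had all 6 neutrophil markers (−0.45), and none passed. The same held for 5 oligodendrocyte markers (−0.36) and 5 B, T or NK cell markers (−0.33). Of 8 astrocyte markers tested 5 were negative and 2 rose (−0.24). Of 5 choroid plexus or ependymal cell markers 4 were negative and none passed (−0.21). Of 12 microglia markers 5 were negative and 1 rose (0.16). The part of other cells in the differences of the members was not tested.

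The transcripts most like *Hlf* across the 16 libraries, out of 14512 others, were *Itga4* (Pearson r 0.891 on the log2 CPM scale), which encodes an integrin chain, *Celf2* (0.880), which encodes an RNA-binding protein, *Cyfip2* (0.874), *Vav3* (0.870) and *Zfp354b* (0.865). These libraries share the genotype difference by which *Hlf* was chosen, and the values are a description. No clock member was among them. The nearest were *Tef* at rank 236 (0.715), *Per2* at rank 409 (0.674) and *Per3* at rank 643 (0.635).

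The other 9 members were then compared between transgenic and nontransgenic mice. Averaged over both *Card9* genotypes, *Tef*, *Per2* and *Per3* fell with the transgenes and none rose. In this contrast 11.3% of all 14513 genes tested passed an FDR of 0.1, and 5.73% passed it with a lower level. In the separate contrasts, where 2.09% of genes passed in 5xFAD against WT and 1.97% in *Card9*-/-5xFAD against *Card9*-/-, none of these 9 members passed. *Hlf*, on which the set was built, is not counted here. Of the 9, 8 had a negative value in each of the 3 contrasts, with a median of −0.87, −0.55 and −0.78 on the log2 scale; over all genes tested the median was −0.15 in each, and 61.1%, 60.6% and 61.7% of genes were negative.

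**Figure D2:**
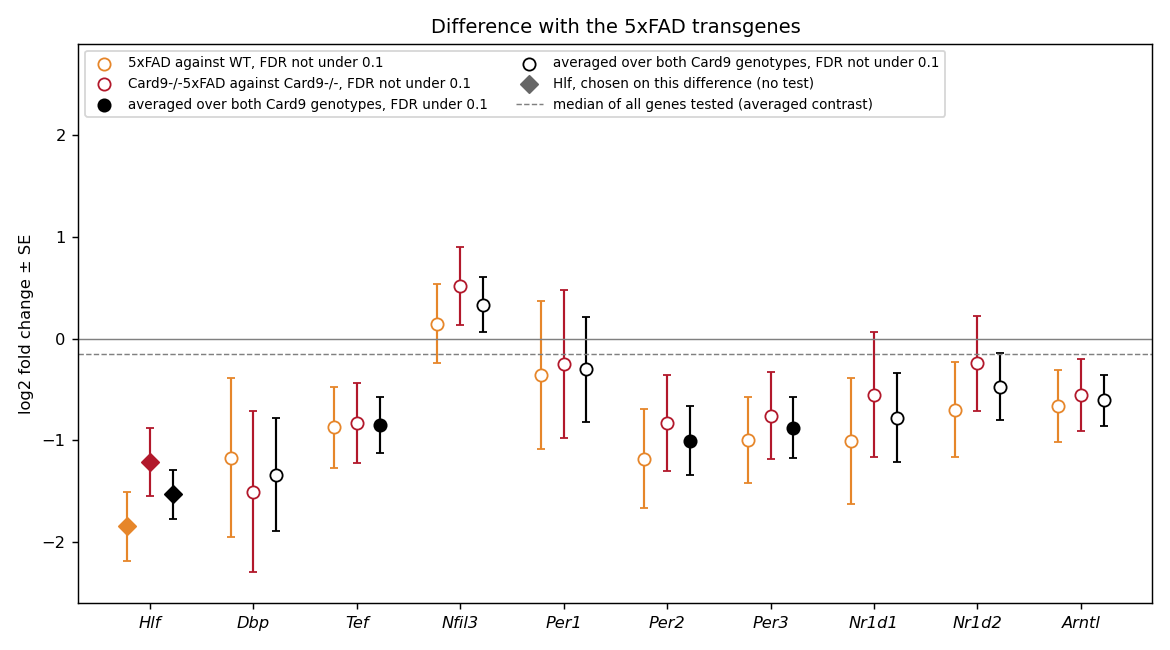
Log2 fold change (y axis, ± SE) of each member with the transgenes in 5xFAD against WT, in *Card9*-/-5xFAD against *Card9*-/- and averaged over both. Filled circles passed an FDR of 0.1 and open circles did not, and diamonds show *Hlf*, for which no test is given; *Nfil3* is the 1 member above 0, at 0.33 in the averaged contrast, and the dashed line marks the median of all genes, −0.15.

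*Tef* (chr15:81802421-81826863, plus strand), which encodes thyrotroph embryonic factor, measured 36.3, 36.5, 45.3 and 91.5 CPM in WT and 77.8, 71.9, 58.3 and 41.2 CPM in *Card9*-/-. In 5xFAD it measured 20.9, 27.6, 18.2 and 47.7 CPM, and in *Card9*-/-5xFAD 44.996, 47.5, 19.8 and 28.0 CPM. The groups overlapped through 5xFAD replicate 4 and the first pair of *Card9*-/-5xFAD libraries, which reached the WT range. *Tef* fell by 0.85 on the log2 scale (SE 0.28; edgeR quasi-likelihood test, FDR 0.0799) in the averaged contrast. The separate values were −0.87 (FDR 0.435) and −0.83 (FDR 0.414).

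*Dbp* (chr7:45705088-45710203, plus strand) encodes the D-box binding protein and is a direct target of the clock. It measured 65.7, 17.1, 29.6 and 25.5 CPM in WT and 14.4, 15.9, 10.7 and 176 CPM in *Card9*-/-. In 5xFAD it measured 16.7, 16.4, 14.4 and 13.5 CPM and in *Card9*-/-5xFAD 8.98, 10.3, 14.6 and 43.3 CPM. The high values belong to the 3 libraries of lowest depth, and the other 13 libraries lay between 8.98 and 29.6 CPM. The averaged log2 fold change was −1.34 (SE 0.56, edgeR FDR 0.164), and without those 3 libraries it was −0.44 (SE 0.19, FDR 0.109). 5xFAD and WT did not overlap, which held for 8.04% of all genes. *Dbp* shares its locus with *Sphk2* on the other strand, and the strand setting of the counting was not given in the sources used here.

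*Nfil3* (chr13:52967209-52981073, minus strand), the D-box repressor, was the 1 member with higher values in transgenic mice in all 3 contrasts, none of which passed the test. It measured 8.27, 12.8, 11.5 and 20.5 CPM in WT, 13.3, 17.0, 5.87 and 10.5 CPM in *Card9*-/-, 9.25, 12.2, 18.0 and 19.6 CPM in 5xFAD, and 22.5, 20.7, 13.4 and 10.01 CPM in *Card9*-/-5xFAD. All 4 groups overlapped. The averaged log2 fold change was 0.33 (SE 0.27, edgeR FDR 0.496).

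The 3 *Per* transcripts, which encode the repressors of the loop, differed from one another. *Per2* (chr1:91415982-91459324, minus strand) measured 2.64, 1.71, 2.87 and 8.67 CPM in WT and 4.68, 5.50, 6.28 and 3.60 CPM in *Card9*-/-. It measured 1.82, 1.37, 1.62 and 2.18 CPM in 5xFAD and 3.06, 4.34, 2.09 and 1.60 CPM in *Card9*-/-5xFAD. The 4 5xFAD libraries were within 1 CPM of each other and, of the nontransgenic libraries, only WT replicate 2 was within their range. *Per2* fell by 1.01 on the log2 scale (SE 0.34, edgeR FDR 0.0871) in the averaged contrast.

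*Per3* (chr4:151003652-151044665, minus strand) measured 38.6, 16.2, 33.4 and 51.4 CPM in WT and 35.7, 50.6, 28.7 and 20.0 CPM in *Card9*-/-. It measured 26.8, 17.1, 12.2 and 13.6 CPM in 5xFAD and 13.7, 13.9, 15.6 and 38.0 CPM in *Card9*-/-5xFAD. WT replicate 2 was as low as the transgenic libraries, and *Card9*-/-5xFAD replicate 4, a library of low depth, was as high as the nontransgenic ones. *Per3* fell by 0.88 on the log2 scale (SE 0.30, edgeR FDR 0.0927), and by 1.15 (FDR 0.00763) without the 3 libraries of lowest depth. Its span overlaps that of *Camta1* on the same strand, so that reads shared by both could have been split or dropped by the counting.

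*Per1* (chr11:69095217-69109960, plus strand) is also an early response gene. It measured 34.7, 4.62, 8.60 and 20.3 CPM in WT, 14.9, 11.5, 8.59 and 87.0 CPM in *Card9*-/-, 22.3, 11.1, 7.73 and 11.8 CPM in 5xFAD, and 18.9, 11.0, 27.8 and 44.1 CPM in *Card9*-/-5xFAD. The highest library of 3 genotypes was the one of low depth, as for *Dbp*. The averaged log2 fold change was −0.30 (SE 0.51, edgeR FDR 0.763), and it was 0.52 (FDR 0.289) without the 3 libraries of lowest depth.

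The calls of *Tef*, *Per2* and *Per3* lay close to the threshold and depended on single libraries. *Tef* passed in 6 of the 16 fits that left out 1 library (WT replicate 1 or 2, *Card9*-/- replicate 4, 5xFAD replicate 4, or *Card9*-/-5xFAD replicate 1 or 2), *Per2* in 4 (WT replicate 1 or 2, *Card9*-/- replicate 4, or *Card9*-/-5xFAD replicate 2) and *Per3* in 4 (WT replicate 2, *Card9*-/- replicate 4, 5xFAD replicate 1, or *Card9*-/-5xFAD replicate 4). Without any other single library the FDR was above 0.1, reaching 0.207, 0.243 and 0.199 over all alternatives for the 3 genes in that order. The log2 fold change stayed negative in each alternative run, between −0.94 and −0.64 for *Tef*, −1.16 and −0.64 for *Per2*, and −1.15 and −0.67 for *Per3*. Without the 3 libraries of lowest depth, *Tef*, *Per2*, *Per3*, *Nr1d1* and *Arntl* passed the test; there 4776 of 14465 genes, or 33.0%, passed, against 11.3% with all libraries.

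*Nr1d1* (chr11:98767932-98775333, minus strand) and *Nr1d2* (chr14:18204054-18239127, minus strand) encode the REV-ERB repressors. *Nr1d1* measured 1.23, 5.56, 7.83 and 9.20 CPM in WT, 7.93, 5.58, 3.91 and 1.96 CPM in *Card9*-/-, 1.06, 3.98, 1.62 and 5.18 CPM in 5xFAD, and 3.65, 5.70, 2.09 and 1.60 CPM in *Card9*-/-5xFAD. *Nr1d2* measured 15.7, 28.7, 37.4 and 66.5 CPM in WT, 41.7, 46.8, 49.5 and 26.5 CPM in *Card9*-/-, 13.3, 19.9, 18.0 and 40.2 CPM in 5xFAD, and 48.0, 53.2, 17.7 and 19.6 CPM in *Card9*-/-5xFAD. In both transcripts all 4 groups overlapped, and the SD within genotype, 0.96 and 0.71 on the log2 scale, exceeded the size of the averaged difference. The averaged log2 fold changes were −0.78 (SE 0.44, edgeR FDR 0.307) for *Nr1d1* and −0.47 (SE 0.33, FDR 0.420) for *Nr1d2*. *Nr1d1* overlaps *Thra* on the other strand. *Thra* measured 4.62 to 10.4 CPM in WT and 4.56 to 13.1 CPM in *Card9*-/-, against 2.16 to 3.43 CPM in 5xFAD and 1.94 to 3.60 CPM in *Card9*-/-5xFAD, and its part in the *Nr1d1* counts was not tested.

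*Arntl* (chr7:113207465-113314126, plus strand), the activator of the loop, measured 16.7, 18.6, 12.6 and 14.2 CPM in WT and 15.6, 21.7, 19.4 and 20.6 CPM in *Card9*-/-. It measured 14.3, 6.17, 6.66 and 12.1 CPM in 5xFAD and 10.6, 13.3, 6.95 and 22.4 CPM in *Card9*-/-5xFAD. The highest of all 16 libraries was *Card9*-/-5xFAD replicate 4, so that the groups overlapped. The averaged log2 fold change was −0.61 (SE 0.25, edgeR FDR 0.157), and −0.72 (FDR 0.0390) without the 3 libraries of lowest depth.

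The question of whether loss of *Card9* alters these transcripts was addressed in 3 contrasts. None of the 10 members passed an FDR of 0.1 in *Card9*-/- against WT, in *Card9*-/-5xFAD against 5xFAD or in the interaction of *Card9* genotype and transgenes, and neither did any other gene (0% in each; 597, 366 and 78 genes had an unadjusted p under 0.05 in edgeR). With DESeq2 on all libraries 5, 2 and 1 genes passed in these contrasts, and with DESeq2 on only the groups compared 8 and 9 passed in the first and the second, with no member among them. The lowest FDR of a member was 0.970, 0.993 and 1.00. The libraries labelled *Card9*-/-5xFAD had higher values than 5xFAD for all 10 members, with a median log2 fold change of 0.33 against 0.14 over all genes, of which 38.0% were negative. The largest values were those of *Per1* (0.93, SE 0.73), *Per2* (0.70, SE 0.49) and *Nr1d2* (0.61, SE 0.47), each less than 2 SE. No member had groups that did not overlap in *Card9*-/- against WT or in *Card9*-/-5xFAD against 5xFAD, while 2.66% and 1.89% of all genes did. For *Hlf* the interaction was 0.63 (SE 0.47), given as a description.

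Among libraries of the same genotype, which the choice of the set did not use, some members varied together in groups. Of the 45 pairs, 13 were correlated in their deviations from genotype means (exact permutation of libraries within genotype, two-sided, Benjamini-Hochberg adjusted p under 0.1), 10 positively and 3 negatively, and 10 of the 13 also passed by Spearman's rho. With the neuron and astrocyte marker mean regressed out 2 pairs passed, and without WT replicate 1 there were 6. The share of correlated pairs among all genes tested was not measured, so that the 13 pairs are not shown to be particular to the members. By r with *Dbp*, *Per1* (0.870) ranked only 755th of 9370 transcripts. *Tef* and *Nr1d2* had the highest r, 0.896 (rho 0.888; exact permutation p = 0.000386, adjusted p = 0.00868). *Nr1d1* and *Nr1d2* had an r of 0.859 (rho 0.853; exact permutation p = 0.000160, adjusted p = 0.00719). *Tef* was also correlated with *Nr1d1* (0.774), *Per2* (0.753) and *Nfil3* (0.627), and *Nr1d2* with *Per2* (0.749) and *Nfil3* (0.676). *Nfil3* was further correlated with *Nr1d1* (0.647) and with *Hlf* (0.675; exact permutation, adjusted p = 0.0635). The latter was the only pair of *Hlf* that passed, and its r was 0.334 without the 2 libraries farthest from the median of *Hlf* (adjusted p = 0.725). The first pair of *Card9*-/-5xFAD libraries illustrates the group: *Tef*, *Nr1d2*, *Per2* and *Nfil3* were all higher in replicates 1 and 2 than in replicates 3 and 4.

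Without the 2 libraries farthest from the median of the first gene, *Tef* and *Nr1d2* had r = 0.812 (exact permutation, adjusted p = 0.0583) and *Nr1d1* and *Nr1d2* r = 0.785 (exact permutation, adjusted p = 0.0491). Of the 13 pairs, 6 passed in that setting. Without the 3 libraries of lowest depth *Tef* and *Nr1d2* had r = 0.926, *Tef* and *Nr1d1* 0.809, *Nr1d1* and *Nr1d2* 0.758, *Per2* and *Nr1d2* 0.722, and *Per1* and *Per3* 0.832, all with an exact permutation adjusted p of 0.0816, and no other pair passed.

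**Figure D3:**
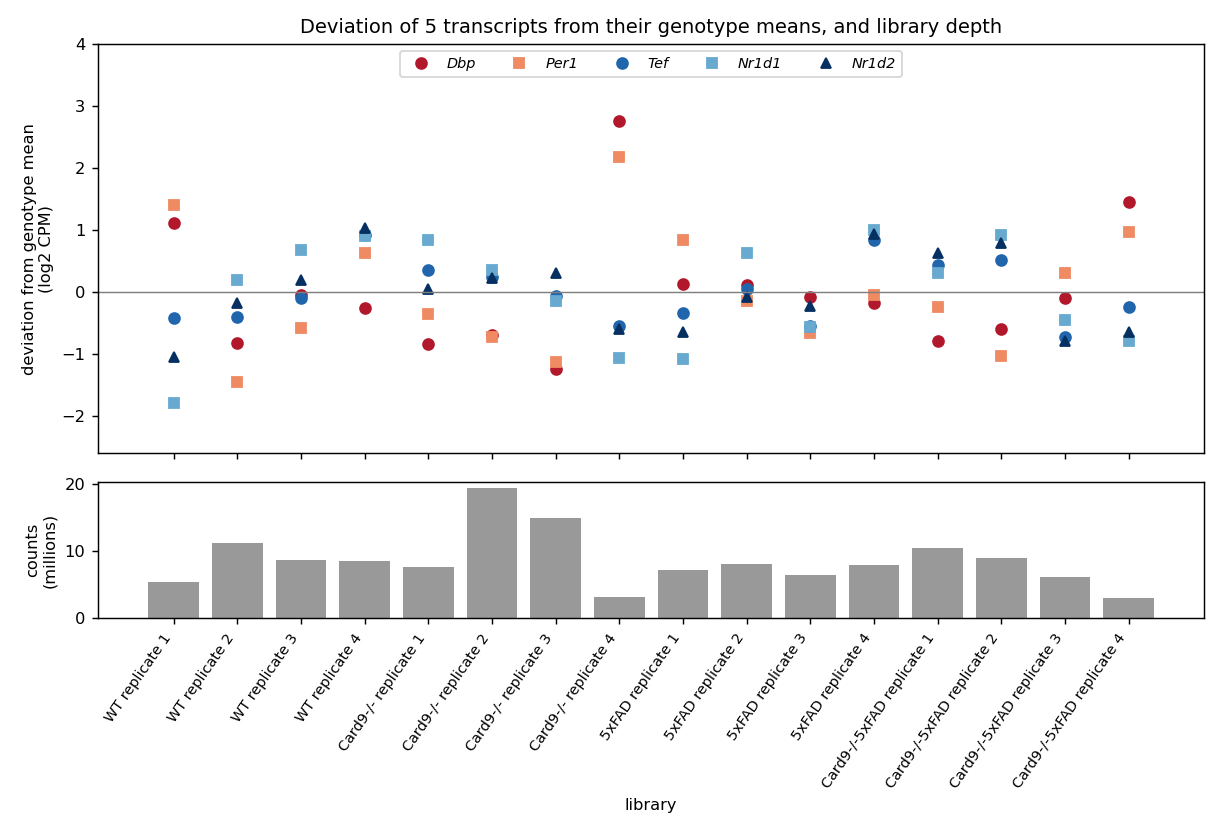
Deviation of 5 transcripts from their genotype means (upper panel, log2 CPM) in each of the 16 libraries, above the counts on genes of each library (lower panel). In WT replicate 1, *Card9*-/- replicate 4 and *Card9*-/-5xFAD replicate 4, the libraries of lowest depth, *Dbp* and *Per1* lie above 0 and *Tef*, *Nr1d1* and *Nr1d2* below it. In 5xFAD replicate 1, which had 7188423 counts, the 5 transcripts lie on the same sides of 0.

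*Dbp* and *Per1* formed a second group, with r = 0.870 (rho 0.779; exact permutation p = 0.000726, adjusted p = 0.0109). *Dbp* was negatively correlated with *Nr1d1* (−0.623; exact permutation, adjusted p = 0.0521) and *Nr1d2* (−0.571; adjusted p = 0.0521), and *Per1* with *Nr1d1* (−0.618; adjusted p = 0.0808). This opposition rested on the libraries of lowest depth. Without those 3 the r was 0.599 for *Dbp* and *Per1* (exact permutation, adjusted p = 0.404), −0.06 for *Dbp* and *Nr1d1* (adjusted p = 0.971), −0.34 for *Dbp* and *Nr1d2* (adjusted p = 0.697) and −0.11 for *Per1* and *Nr1d1* (adjusted p = 0.971). Without *Card9*-/- replicate 4 alone, *Dbp* and *Per1* had r = 0.764 (exact permutation, adjusted p = 0.0687). The negative r there was −0.599 for *Dbp* and *Nr1d1* (exact permutation, adjusted p = 0.153) and −0.618 for *Dbp* and *Nr1d2* (adjusted p = 0.179). For *Per1* and *Nr1d1* it was −0.538 (adjusted p = 0.287).

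The transcripts most like *Dbp* in deviations from genotype means, out of 9370, were *Dnajb4* (r 0.984), which encodes a heat shock protein cochaperone, *Tra2b* (0.979), a splicing regulator, *D830025C05Rik* (0.974), *Kdr* (0.971), the endothelial receptor for vascular endothelial growth factor, and *Gm45546* (0.968). *Per1* ranked 755th. *Kdr* belongs to the 10 endothelial or mural cell markers, which were highest in the same 3 libraries, and their part in the *Dbp* values was not tested.

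**Figure D4:**
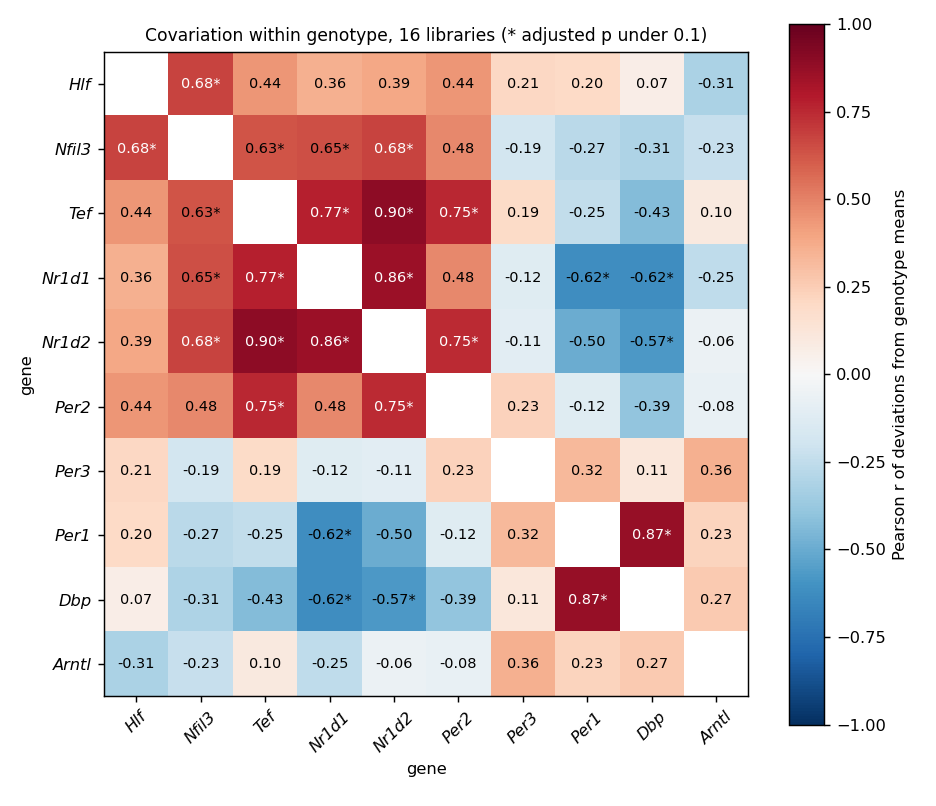
Pearson r (colour and number) between members in deviations from genotype means of log2 CPM over 16 libraries, with an asterisk where the Benjamini-Hochberg adjusted exact permutation p was under 0.1. *Nfil3*, *Tef*, *Nr1d1*, *Nr1d2* and *Per2* form a block with r between 0.48 and 0.90. *Hlf* passed with *Nfil3* only, at 0.68, *Dbp* and *Per1* are correlated at 0.87, and *Arntl* and *Per3* passed with no member.

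Of 21 other clock genes, 17 were tested. In the averaged contrast 4 of them rose with the transgenes and none fell, where 11.3% of all genes passed in either direction, and none passed in any other contrast. *Bhlhe40*, which encodes the repressor DEC1, rose by 1.82 on the log2 scale (SE 0.42, edgeR FDR 0.0160), and passed in all 26 alternatives. It measured 7.57, 14.5, 11.1 and 14.9 CPM in WT and 13.3, 11.5, 10.2 and 9.16 CPM in *Card9*-/-, against 18.2, 53.7, 30.2 and 53.7 CPM in 5xFAD. In *Card9*-/-5xFAD it measured 77.0, 73.1, 11.3 and 8.01 CPM, so that replicates 3 and 4 were within the nontransgenic range. *Rora*, which encodes the receptor that opposes REV-ERB at *Arntl*, rose by 0.66 (FDR 0.0455), and did not pass without WT replicate 4, 5xFAD replicate 3 or *Card9*-/-5xFAD replicate 1, with a value of 0.56 to 0.83 over all alternatives.

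*Timeless* (0.68, edgeR FDR 0.0668) and *Tipin* (0.67, FDR 0.0878), which form a complex at replication forks, also rose. They passed in 6 and in 5 of the 16 fits that left out 1 library, with values of 0.59 to 0.84 and 0.52 to 0.88 over all alternatives. The partner of BMAL1, *Clock* (−0.46, FDR 0.362), and the repressors *Cry1* (−0.57, FDR 0.322) and *Cry2* (−0.59, FDR 0.279) had negative values that did not pass, and *Bhlhe41*, which encodes DEC2, had a value of 0.38 (FDR 0.466). *Npas2*, *Arntl2* and *Rorb* had too few counts to be tested, with at most 5 in a library. The median over the 17 genes was −0.18, against −0.15 over all genes.

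**Figure D5:**
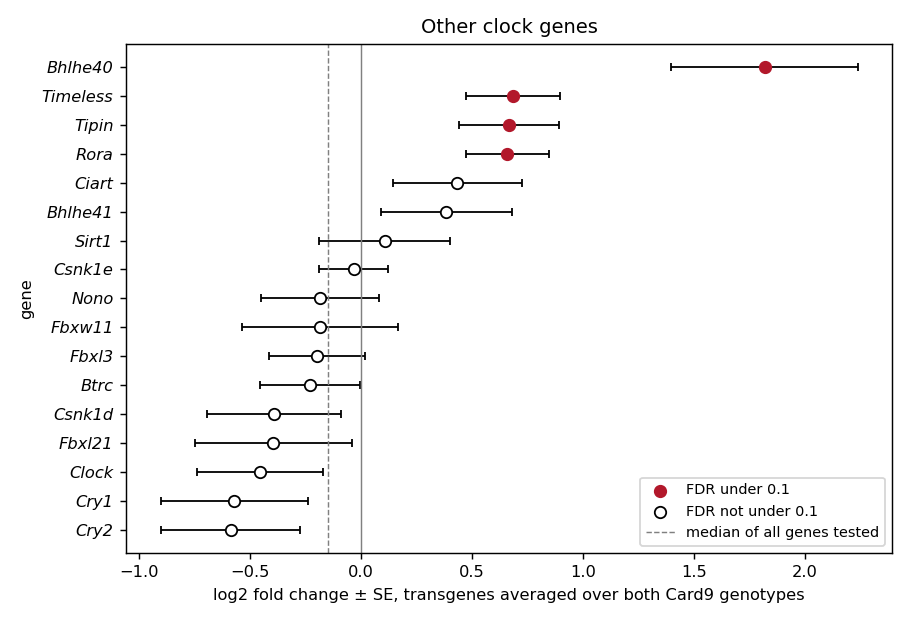
Log2 fold change (x axis, ± SE) of the 17 tested other clock genes in the contrast averaged over both *Card9* genotypes. Filled points passed an FDR of 0.1, and these are *Bhlhe40*, *Timeless*, *Tipin* and *Rora*, all above 0; the dashed line marks the median of all genes, −0.15.

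Of 10 clock output genes in other tissues, such as *Usp2* and *Wee1*, 9 were tested and none passed in any of the 6 contrasts, while 1 had an unadjusted p under 0.05 in the averaged contrast in edgeR. Their median was −0.06 there.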

How the data were processed

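Whole-number read counts per gene were deposited by the authors for all 16 libraries, without normalization; per the labels and the study's methods, reads were aligned to mm10 with HISAT2, filtered with SAMtools and counted with HTSeq, with versions and strand setting not given in the sources used here. Libraries held 2970148 to 19333325 counts.

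Counts were tested in R 4.3.3 with edgeR 4.0.16 (quasi-likelihood, TMM, filterByExpr with a minimum count of 10, 14513 genes, all 16 libraries in 1 fit with 4 groups, FDR threshold 0.1 by Benjamini-Hochberg within each contrast). The averaged contrast is the mean of both transgene contrasts and shares their libraries. The SE came from the fold change and its F statistic. Log2 CPM used a prior count of 2. RPKM divided CPM by the union of GENCODE M21 exons. Correlations used deviations from genotype means, with all 331776 permutations within genotype. DESeq2 1.42.0, sva 3.50.0, the other filters and the covariates were alternatives. Scripts were tested on simulated data. No 2 libraries of a genotype were copies.

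The members and gene lists were chosen with earlier results of these data known. Named genes are the 10 members, *Card9*, every listed clock gene that passed, and the 5 transcripts most like *Hlf* and *Dbp*. *Thra*, *Sphk2*, *Camta1*, *Usp2*, *Wee1*, *Clock*, *Cry1*, *Cry2*, *Bhlhe41*, *Mt1*, *Sgk1* and *Dusp1*, and genes below the filter, were named after their values were seen. Promoter windows came from RefSeq (GRCm38.p6), with 9 of 10 members matched.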

Additional observations from a re-analysis of the deposited data

Results flagged for a closer look

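In each of 40 groups of 4 libraries (10 members in 4 genotypes), the highest and the lowest library were compared with the others on the log2 CPM scale by Dixon's 95% criterion, by which chance flags about 1 in 20 groups. The criterion was met in 2 of the 40 groups, the number that chance gives at this rate. In *Card9*-/- replicate 4, *Dbp* was at 176 CPM and the other *Card9*-/- libraries were at 10.7 to 15.9 CPM (gap over range 0.861). In *Card9*-/-5xFAD replicate 4, *Per3* was at 38.0 CPM and the other *Card9*-/-5xFAD libraries were at 13.7 to 15.6 CPM (gap over range 0.872). Both are among the 3 libraries of lowest depth, with 3229322 and 2970148 counts, and both had summed neutrophil markers of 5974 CPM or more, against at most 3590 CPM in the other 14. The part of other cells in these values was not tested.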

How the results depend on the processing

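*Hlf*, on which the set was chosen, is part of the first count given for each setting, as a description, and the other 9 members are counted apart. In 5xFAD against WT the 1 member counted was *Hlf*, where 2.09% of all genes passed. With 1 surrogate variable 2 were counted, *Hlf* and *Dbp*, where 8.62% of all genes passed. In *Card9*-/-5xFAD against *Card9*-/- 0 members passed in edgeR (of the other 9, 0 had an unadjusted p under 0.05), where 1.97% of all genes passed. The 1 member with DESeq2 on all libraries (4.82% of all genes) or with the neuron and astrocyte marker mean as a covariate (10.1%) was *Hlf*. It was also the 1 member without single libraries (0 to 1). With the surrogate variable 2 were counted, *Hlf* and *Dbp*, where 12.5% of all genes passed. In the averaged contrast 4 were counted, 3 of them other than *Hlf*. There were 1 with no filter and at an FDR of 0.05 (*Hlf* only), 2 of 8 tested with at least 10 counts in every library, 2 with the early response mean as a covariate, and 1 to 4 when each library was left out (0 to 3 others). With the surrogate variable or the marker covariate 6 were counted, 5 of them others, where 4576 and 3650 of 14513 genes (31.5% and 25.1%) passed. Leaving out the 3 libraries of lowest depth, an alternative chosen after seeing the data, gave 1, 2 and 6 members in these contrasts (0, 1 and 5 others), where 12.9%, 10.3% and 33.0% of genes passed. The contrasts of *Card9* genotype and the interaction gave 0 members in all alternatives. Of the 45 pairs, 13 passed, against 2 with the neuron and astrocyte marker mean regressed out, 5 at an adjusted p of 0.05, 8 without the 2 farthest libraries, 5 without the 3 libraries of lowest depth, and 6 (without WT replicate 1) to 16 (without WT replicate 2) when each library was left out. Of 1464 values of the other 9 members under the alternatives, 0 reversed a called direction, 45 lost and 11 gained a call, and 17 values without a call changed sign by more than 1 SE. The replicate numbers did not pair the libraries (r of same-numbered libraries −0.710 to 0.734, with 15 of 24 such pairs over 0.1, and 5 of 16 libraries correlated best with their own number); with the replicate block 1, 0 and 3 members were counted in the 3 transgene contrasts, with *Per2* losing its call (FDR 0.126), and 18 pairs passed. Over all genes, 304, 286 and 1647 passed, with ranges over the alternatives of 164 to 1864, 96 to 1810 and 920 to 4776. DESeq2 size factors moved the median of all genes in the averaged contrast from −0.15 to −0.08 and called 3 members. The causes were not tested. Depth limits *Per2* and *Nr1d1*, with as few as 4 counts.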

Other observations

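Other inducible programs were measured beside the clock genes. Of 15 glucocorticoid response genes 11 were tested, and none passed in any of the 6 contrasts in edgeR, with 1 at an unadjusted p under 0.05 in the averaged contrast. The summed level of the list was 4218 to 4978 CPM in *Card9*-/-5xFAD, 2708 to 3881 CPM in 5xFAD, 2999 to 3482 CPM in WT and 2557 to 4532 CPM in *Card9*-/-. Most of it came from *Mt1*, *Sgk1* and *Dusp1*, with means of 1051, 1108 and 1339 CPM in *Card9*-/-5xFAD and 688, 731 and 757 CPM in 5xFAD. *Mt1* ran from 300 to 2745 CPM within *Card9*-/-5xFAD, so that the sums lean on a few genes. In *Card9*-/-5xFAD against 5xFAD, 10 of the 11 tested had positive values, and 0 had an unadjusted p under 0.05 in edgeR. Their median was 0.60 on the log2 scale, against 0.14 over all genes, of which 38.0% were negative. In the interaction 10 of the 11 were positive as well (median 0.77, against 0.02 over all genes). Of 24 early response genes, 1 rose and 1 fell in the averaged contrast, where 11.3% of all genes passed in either direction. In *Card9*-/-5xFAD against 5xFAD all 24 had positive values (median 0.63 on the log2 scale, against 0.14 over all genes), of which 5 had an unadjusted p under 0.05 and 0 passed in edgeR. Their mean log2 CPM ran from 5.97 in 5xFAD replicate 1 to 7.82 in *Card9*-/- replicate 4.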
